A study of Mus musculus with 91 samples.

Results

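The receptors through which acetylcholine, serotonin, noradrenaline and dopamine act on neurons were examined in single layer 5 (L5) pyramidal neurons (Pyrs) of the mouse primary visual cortex (V1). The set held 37 genes: 5 muscarinic, 8 nicotinic, 12 serotonin, 7 adrenergic and 5 dopamine receptor genes, taken by their symbols from the 34745 rows of the count table. Of the 37 genes, 26 had a count in at least 1 of the 91 neurons, beside 18674 of all 34745 rows, and 6 passed the filter of the test between neuron types. Each neuron was recorded with a patch pipette in a slice, its soma was drawn into the pipette with the nucleus, and its mRNA was amplified and sequenced (Patch-seq). The 47 Pyr←LP and 44 Pyr←ORBvl neurons were all of wild-type genotype (WT in the labels), and the study's methods describe its wild-type mice as C57, of both sexes and 8 to 12 weeks old. Pyr←LP neurons are the type excited by the thalamic lateral posterior nucleus and Pyr←ORBvl neurons the type excited by the ventrolateral orbitofrontal cortex. In these 91 neurons the type was assigned by a classifier of the hyperpolarization-activated current (Ih), not by stimulating either input. Neither the labels nor the study's table of these neurons names the mouse of a neuron, so the prefix of the neuron's name was used as the only sign of origin. The study's text gives more than 1 number of mice for them, so whether prefixes share a mouse could not be settled, and p-values measure the spread between prefixes, which may be technical, as if all were independent. Only the fits named as having neurons as replicates measure the spread between single neurons instead, as if neurons of a prefix were independent.

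Acetylcholine reaches the cortex from the basal forebrain, noradrenaline from the locus coeruleus and serotonin from the raphe nuclei, and these transmitters set the excitability of cortical neurons with arousal and attention. Nicotinic receptors and the serotonin receptor encoded by *Htr3a* are ion channels, and the other receptors act through G proteins. The Gq-coupled receptors activate phospholipase C, the Gs-coupled receptors raise cyclic AMP and the Gi-coupled receptors lower it. Muscarinic and adrenergic signals are known to change the firing of L5 Pyrs through potassium channels and through the HCN channels that carry Ih.

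Total counts ranged from 2410 to 1948982 per neuron, with a median of 411884 in Pyr←LP and 445008 in Pyr←ORBvl neurons, and 72 neurons had at least 100000 counts. The median number of detected genes was 3241 in Pyr←LP and 3980.5 in Pyr←ORBvl neurons. The pan-neuronal gene *Snap25* had a count in all 47 and 44 neurons, the excitatory marker *Slc17a7* in 35 of 47 and 36 of 44, and the L5 marker *Fezf2* in 20 of 47 and 32 of 44. Glial transcripts were also present: *Mbp* of oligodendrocytes had a count in 45 and 43 neurons and *C1qb* of microglia in 39 and 43. The summed *Slc32a1*, *Gad1* and *Gad2* signal exceeded the study's limit for inhibitory markers in 8 neurons, 3 Pyr←LP and 5 Pyr←ORBvl. Pyr←ORBvl neurons 5 and 11, which carry different prefixes and are both among these 8, had nearly the same profile (r = 0.993 of log2(count + 1) across genes, against 0.711 for the next highest pair). Their counts differed by more than sampling noise (chi-square of 3.46 per gene), and both were kept. That does not show that they are separate cells: whether 1 is a second library or a carry-over of the other was not tested, and results that rest on them are also given without them.

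Receptor transcripts were sparse, and every receptor gene other than *Adrb1* had no count in most neurons. Of the 26 detected genes, 13 had a count in 1 to 4 neurons, 6 in 5 to 9 neurons and 7 in at least 10 neurons. These 7 were *Adrb1*, *Chrm1*, *Chrnb2*, *Htr1f*, *Chrm3*, *Chrna4* and *Htr2a*. Of the 24308 receptor counts in all neurons together, 34.7% came from *Adrb1*. The genes found in both types numbered 17, with 4 found in Pyr←LP neurons alone and 5 in Pyr←ORBvl neurons alone. *Adra1a* aside, each gene found in 1 type alone had a count in only 1 or 2 neurons. The same split over all genes was not computed, so these numbers show no difference between the types. In 9 of the 22 genes with counts in more than 1 neuron, a single neuron held over 50% of the counts.

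**Figure D1:**
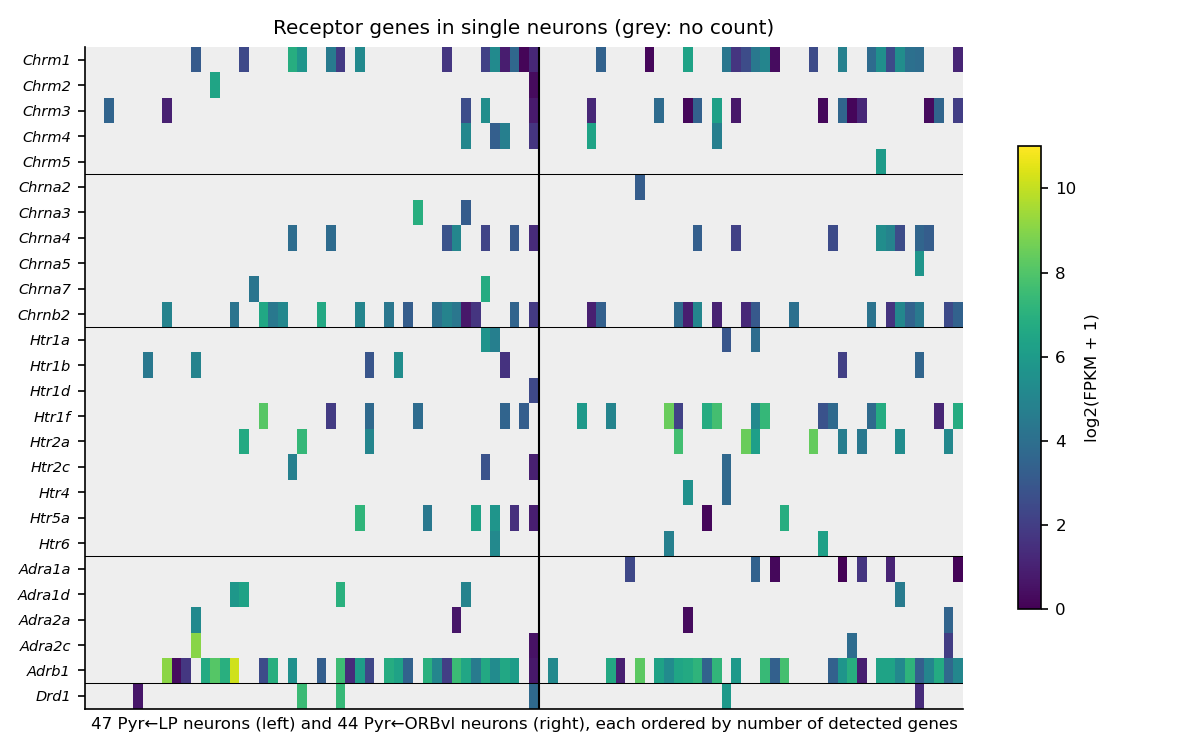
Level of the 26 detected receptor genes (rows, grouped by family) in each of the 47 Pyr←LP and 44 Pyr←ORBvl neurons (columns, ordered by the number of detected genes), as log2(FPKM + 1), with grey for neurons without a count. *Adrb1* is the row with the most filled cells (57 of 91 neurons), and most other rows are empty in most neurons.

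*Adrb1*, the Gs-coupled β1 receptor for noradrenaline (chromosome 19, 56722199 to 56733113, plus strand, GRCm38), had a count in 29 of 47 Pyr←LP neurons (61.7%, 95% Wilson interval 47.4 to 74.2) and in 28 of 44 Pyr←ORBvl neurons (63.6%, 48.9 to 76.2). Among the Pyr←LP neurons with a count, its level ran from 0.305 to 1191 FPKM with a median of 69.0. Among the Pyr←ORBvl neurons with a count it ran from 0.8996 to 300 FPKM with a median of 69.5. The medians of positive neurons thus lay within 1 FPKM of each other, and 2 Pyr←LP neurons, at 547 and 1191 FPKM, lay above the highest Pyr←ORBvl neuron. The neuron with the highest value, Pyr←LP neuron 40, alone held 28.6% of the *Adrb1* counts of its type. Over the prefixes, the share of neurons with *Adrb1* ran from 0 to 100% in both types, with a median of 63.3% in Pyr←LP and 50% in Pyr←ORBvl.

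The other adrenergic receptors were found in few neurons. *Adra1a*, a Gq-coupled α1 receptor, had a count in 7 of 44 Pyr←ORBvl neurons (15.9%, 7.93 to 29.4) and in 0 of 47 Pyr←LP neurons, which allows a share of up to 6.38% by the limit of 3 neurons of the total used here for a count of 0 (the upper Wilson bound is 7.56%). Its counts were 1, 1, 3, 3, 6, 13 and 17 in these 7 neurons, 3 of which carry the prefix 914, and levels ran from 0.0491 to 9.86 FPKM. With every neuron thinned to 100000 counts, it remained in 2 of 34 Pyr←ORBvl neurons and 0 of 38 Pyr←LP neurons. It was in too few neurons for either test between the types. *Adra1d*, another α1 receptor, showed counts mostly in the other type, in 4 Pyr←LP neurons and 1 Pyr←ORBvl neuron, at 22.6 to 125 FPKM. The α2 receptors *Adra2a* and *Adra2c*, which are Gi-coupled, each had a count in 2 neurons of each type. The *Adra2c* level of Pyr←LP neuron 30, at 533 FPKM, was 96.9% of the summed *Adra2c* FPKM of all neurons.

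Among the muscarinic receptors, the Gq-coupled M1 and M3 genes led. *Chrm1* (chromosome 19, 8663789 to 8683587, plus strand) had a count in 14 of 47 Pyr←LP neurons (29.8%, 18.7 to 43.98) and in 18 of 44 Pyr←ORBvl neurons (40.9%, 27.7 to 55.6). In neurons with a count it lay between 0.0938 and 115 FPKM in Pyr←LP (median 6.18) and between 0.136 and 80.7 FPKM in Pyr←ORBvl (median 13.7). *Chrm3* was seen in 5 of 47 Pyr←LP neurons (10.6%, 4.63 to 22.6) and 13 of 44 Pyr←ORBvl neurons (29.5%, 18.2 to 44.2). Most of these *Chrm3* counts were small, with a median of 4 counts in the 13 Pyr←ORBvl neurons. At a threshold of at least 5 counts, *Chrm3* was in 4 of 47 and 5 of 44 neurons. The Gi-coupled *Chrm4* was found in 4 Pyr←LP and 2 Pyr←ORBvl neurons, *Chrm2* in 2 Pyr←LP neurons and *Chrm5* in 1 Pyr←ORBvl neuron. The library kit does not mark strand and annotated genes on the opposite strand overlap *Chrm1*, *Chrm2* and *Chrm3*, as well as *Htr1b* and *Adra1d*, so reads of these genes and of their antisense partners cannot be told apart.

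The nicotinic receptor genes with counts in the most neurons were *Chrnb2* and *Chrna4*, whose β2 and α4 subunits form the main high-affinity receptor of the cortex. *Chrnb2* (chromosome 3, 89746195 to 89764632, minus strand, overlapped by *Adar* on the opposite strand) had a count in 16 of 47 Pyr←LP neurons (34.04%, 22.2 to 48.3) and in 16 of 44 Pyr←ORBvl neurons (36.4%, 23.8 to 51.1). Its levels in these neurons were 0.640 to 99.1 FPKM in Pyr←LP (median 19.7) and 0.882 to 33.1 FPKM in Pyr←ORBvl (median 9.60). *Chrna4* (chromosome 2, 181018380 to 181043546, minus strand) was in 7 of 47 (14.9%, 7.41 to 27.7) and 8 of 44 neurons (18.2%, 9.51 to 31.96), at medians of 7.39 and 8.87 FPKM. Counts of both subunits together were found in 8 neurons, which is 53.3% of the 15 neurons with *Chrna4* and 25% of the 32 with *Chrnb2*. In 23 neurons *Chrnb2* had a count and no α subunit gene of the list did, and in 10 neurons an α subunit gene had a count and *Chrnb2* did not. *Chrna7*, the subunit of the homomeric receptor, and *Chrna3* were each in 2 Pyr←LP neurons, and *Chrna2* and *Chrna5* each in 1 Pyr←ORBvl neuron.

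Serotonin receptors were the family with the largest number of detected genes, 9 of 12. *Htr1f*, a Gi-coupled receptor of the 5-HT1 class (chromosome 16, 64924729 to 65105854, minus strand), had a count in 6 of 47 Pyr←LP neurons (12.8%, 5.98 to 25.2) and in 14 of 44 Pyr←ORBvl neurons (31.8%, 19.999 to 46.6). In neurons with a count, *Htr1f* lay between 2.76 and 281 FPKM in Pyr←LP (median 11.6) and between 1.20 and 360 FPKM in Pyr←ORBvl (median 48.4). None of its counts came from the 8 neurons above the inhibitory marker limit. The Gq-coupled 5-HT2A gene *Htr2a* (chromosome 14, 74640840 to 74709494, plus strand) was in 3 of 47 Pyr←LP neurons (6.38%, 2.19 to 17.2), with 100, 124 and 249 counts. It was in 8 of 44 Pyr←ORBvl neurons (18.2%, 9.51 to 31.96), with 10, 17, 27, 53, 69, 88, 985 and 1117 counts. The last 2 values are those of the near-identical Pyr←ORBvl neurons 5 and 11, which together held 74.0% of all *Htr2a* counts. Without either one of them, *Htr2a* was in 7 of 43 Pyr←ORBvl neurons. *Htr5a* had a count in 6 Pyr←LP and 2 Pyr←ORBvl neurons and *Htr1b* in 5 and 2, and both encode Gi-coupled receptors. Within the 14 prefixes that hold both types, the share with *Htr1b* was higher in Pyr←LP in 5 and in Pyr←ORBvl in 1, and that with *Htr5a* in 4 and 1. A single neuron, Pyr←LP neuron 38, held 705 of the 1557 *Htr5a* counts. *Htr1a*, *Htr1d*, *Htr2c*, *Htr4* and *Htr6* were in 1 to 4 neurons each.

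*Drd1*, the Gs-coupled D1 receptor, was the only dopamine receptor gene with a count. It was found in 4 Pyr←LP neurons, with 1, 55, 327 and 358 counts, and in 2 Pyr←ORBvl neurons, with 1 and 7 counts. The genes with no count in any of the 91 neurons were *Drd2*, *Drd3*, *Drd4* and *Drd5*, *Adra1b* and *Adra2b*, *Htr2b*, *Htr3a* and *Htr7*, and *Chrna6* and *Chrnb4*. By the limit of 3 neurons, a count of 0 in 91 neurons allows a share of up to 3.30% of neurons with a count. This limit and the Wilson intervals cover counting error over neurons only and treat neurons of a prefix as independent. The reads carried no molecular identifiers.

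**Figure D2:**
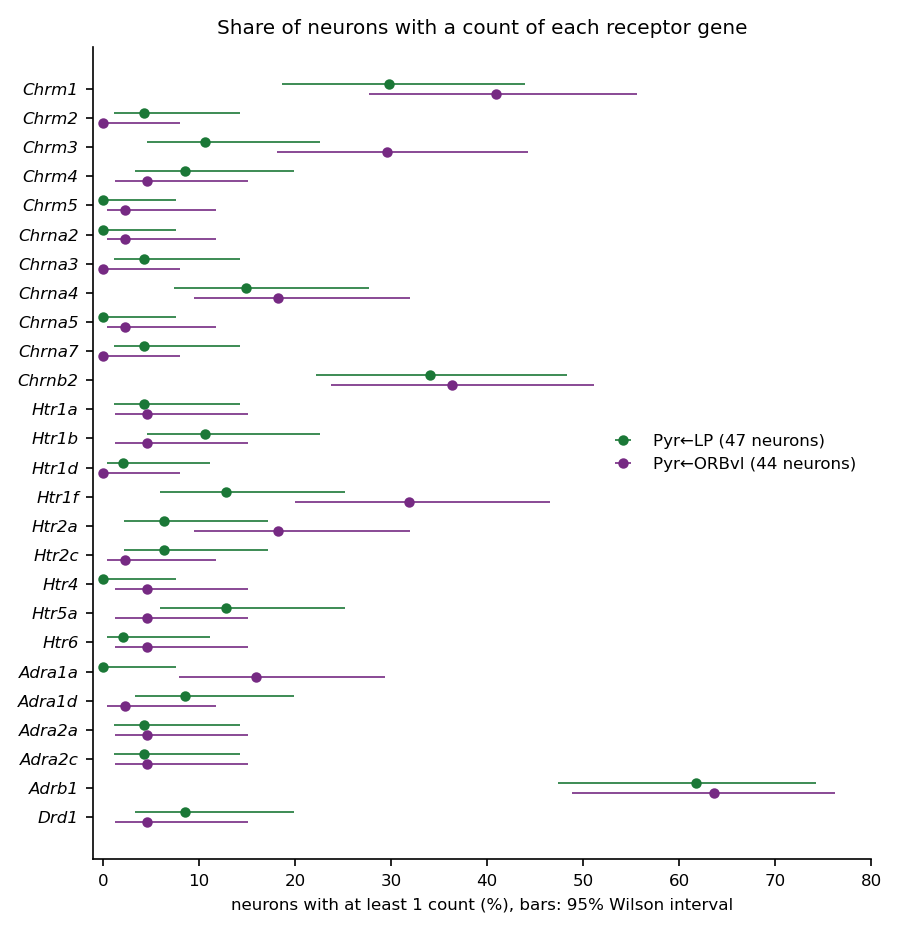
Percent of neurons with at least 1 count of each of the 26 detected receptor genes, in Pyr←LP (47) and Pyr←ORBvl (44) neurons, with 95% Wilson intervals. *Adrb1* stands alone above 60% in both types, and the intervals, which treat neurons as independent, are wide. For *Adra1a* they lie just apart (upper bound 7.56% in Pyr←LP against lower bound 7.93% in Pyr←ORBvl), which is no test between the types. How many of all genes have intervals apart was not computed. *Adra1a* had a count in 7 Pyr←ORBvl and 0 Pyr←LP neurons, and in 2 and 0 in thinned counts, which leave out neurons under 100000 counts.

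To ask whether the types differed in receptor expression, counts were summed over the neurons of a type within a prefix and tested with edgeR's quasi-likelihood test. Of 8267 genes tested, 23 (0.278%) were called with a fold above 2 and an adjusted p under 0.05, of which 17 (0.206% of those tested) were higher in Pyr←ORBvl and 6 (0.0726%) in Pyr←LP. Of the 6 receptor genes tested, 0 were called. None of the 6 was called either by DESeq2 on the same sums (0.762% of all genes called), with neurons as replicates in edgeR (1.57%) or DESeq2 (0.823%), or in edgeR with the prefix as a block (0.0121%, and 4.61% at an unadjusted p under 0.05). Without a gene filter, a fit that called 21.3% of all genes, 10 of 26 receptor genes were called, each of them found in 1 to 7 neurons. The median log2 fold change of the 6 was 0.25, beside 0.06 over all genes tested, positive meaning higher in Pyr←ORBvl. At an unadjusted p under 0.05, 1 of the 6 passed, beside 4.32% of all genes. Since the 6 genes passed a filter on low values, they do not stand for the 37.

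*Htr1f* was the gene below that unadjusted limit. In the prefix sums its TMM-scaled CPM (counts relative to the library total) ran from 0 to 23.2 in Pyr←LP (median 0, above 0 in 6 of 16 sums) and from 0 to 235 in Pyr←ORBvl (median 10.1, above 0 in 10 of 15 sums). The ranges overlapped, and every Pyr←LP sum lay in the lower part of the Pyr←ORBvl range. The edgeR log2 fold change was 3.09 (SE 1.36, unadjusted p = 0.0263), and the adjusted p of 0.999 did not pass. Over 33 alternatives the adjusted p ran from 0.160 to 1.00. The direction was positive in all 33, with log2 fold changes of 1.85 to 3.57. Within the prefixes that hold both types, the share of neurons with *Htr1f* was higher in Pyr←ORBvl in 10, higher in Pyr←LP in 3 and 0 in both types in 1.

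*Htr2a* had a log2 fold change of 1.78 (SE 1.42, edgeR adjusted p = 0.999). Without Pyr←ORBvl neuron 5 the estimate was 1.23, and without neuron 11 it was 0.99. Over 29 alternatives it ran up to 3.77, and 1 of these had an unadjusted p under 0.05 (edgeR with neurons as replicates, 2.16, unadjusted p = 0.0244, adjusted p = 0.375). With 1 prefix left out it lay between 1.29 (without 822) and 2.91 (without 916). With the neurons above the inhibitory marker limit left out, *Htr2a* was in 8 of 83 neurons and no longer passed the filter. For *Adrb1*, the sums were at 0 to 732 CPM (TMM-scaled, median 119) in Pyr←LP and at 0 to 407 (median 182) in Pyr←ORBvl. Its log2 fold change was -0.49 (SE 0.85, edgeR adjusted p = 0.999), negative in all 34 alternatives as well. Its size was less stable than its sign, from -1.44 to -0.14, the latter without prefix 915. *Chrm1* had a log2 fold change of 0.32 (SE 1.20), *Chrna4* of 0.18 (SE 1.24) and *Chrnb2* of -0.27 (SE 1.20), each with an edgeR adjusted p of 0.999. For these 3 genes the standard error exceeded the estimate, and the sign turned in 1 to 3 alternatives each. An SE of 1.20 on the log2 scale leaves room for differences of more than 2-fold in either direction, so these estimates do not show that the types were alike.

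**Figure D3:**
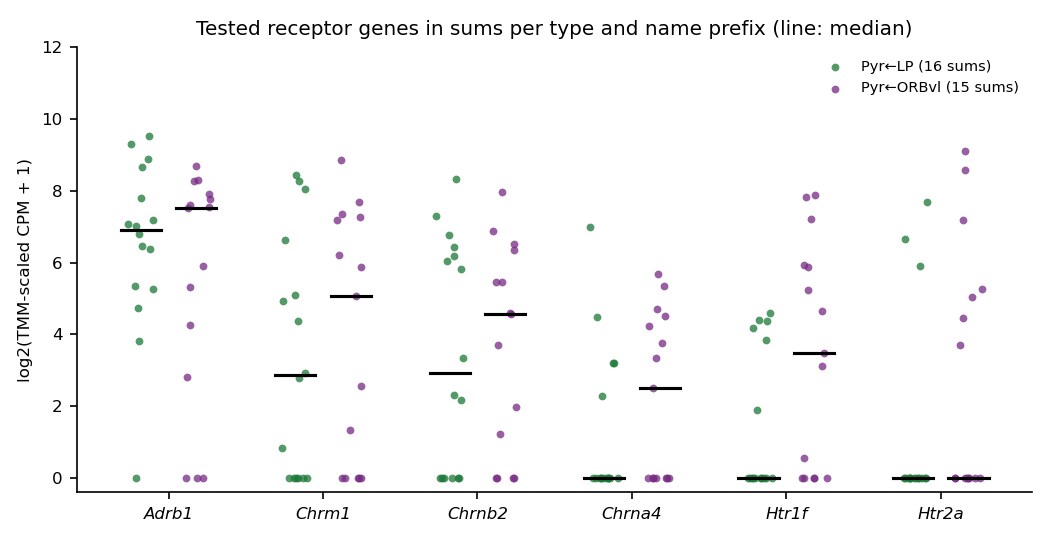
TMM-scaled CPM of the 6 tested receptor genes, as log2(CPM + 1), in each sum of counts per type and name prefix (16 Pyr←LP and 15 Pyr←ORBvl sums), with black lines at the medians. The sums of the types overlap for every gene, and *Htr1f* has a median of 0 CPM in Pyr←LP against 10.1 in Pyr←ORBvl.

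**Figure D4:**
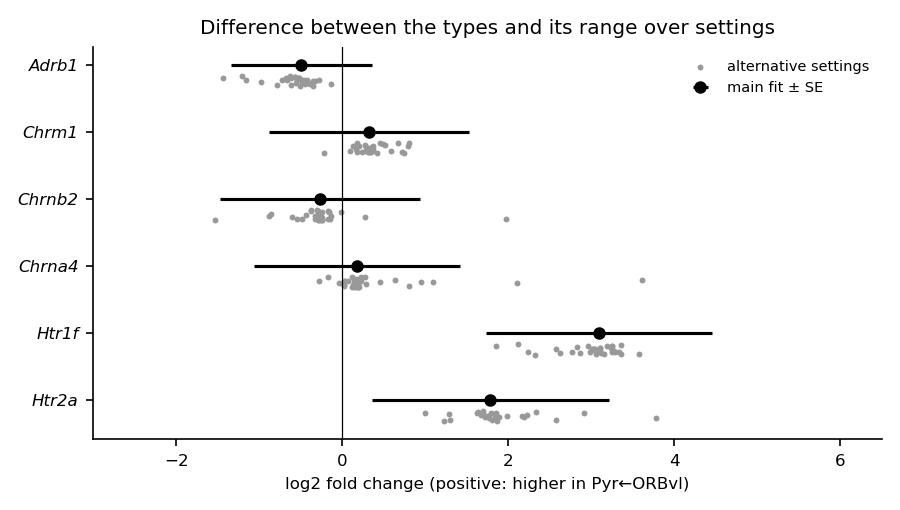
Log2 fold change (Pyr←ORBvl over Pyr←LP) of the 6 tested receptor genes in the edgeR fit on sums (black point, bar ± SE) and in the alternative settings (grey points, shifted down for display). Only the points of *Htr1f*, *Htr2a* and *Adrb1* lie on 1 side of 0 throughout.

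The share of neurons with a count was compared within prefixes by an exact two-sided sign-flip permutation test over the 14 prefixes that hold both types. Of 9590 genes tested, 0 passed after adjustment over all genes, which is a background of 0%, and 585 (6.10%) had an unadjusted p under 0.05. Of the 7 receptor genes tested, 0 passed, and 6 had a mean difference above 0, beside 62.9% of all genes. The number of prefixes that differ bounds this test: the smallest p it allowed was 0.000244 for *Htr1f* and *Chrm1*, 0.00391 for *Chrm3* and *Chrna4* and 0.00781 for *Htr2a*. After adjustment a call of *Htr1f* would have needed at least 47 genes at or below that p and a call of *Htr2a* at least 1499, so the lack of calls says little about the receptors. The mean difference for *Htr1f* was 20.95 percentage points (exact permutation p = 0.0408, adjusted p = 0.786). It was 15.7 points for *Chrm3* (exact p = 0.109, higher in Pyr←ORBvl in 7 prefixes and in Pyr←LP in 2) and 11.2 points for *Htr2a* (exact p = 0.148, higher in 6 and 2). For *Htr2a* it was 9.40 points without Pyr←ORBvl neuron 5, 10.1 without neuron 11, and 6.55 (higher in 4 and 2, not tested) without the neurons above the inhibitory marker limit, which leaves out both. The differences for *Chrnb2*, *Chrm1* and *Chrna4* were 11.9, 11.5 and 8.93 points, and that for *Adrb1* was -11.0 points (exact p = 0.312), whereas the pooled shares of *Adrb1* differed by 1.93 points in the other direction. The median difference over all genes was 3.33 points. It was 0 once neurons with at least 100000 counts were thinned to that total, over the 11 prefixes that still held both types. After thinning the differences were 15.9 points for *Htr1f*, 6.82 for *Chrm3* and 3.03 for *Htr2a*, 18.2 for *Chrnb2* and 12.9 for *Chrna4*, and -10.6 for *Adrb1*. That for *Chrm1* was -2.27 points, so its sign turned. With at least 5 counts asked of a neuron, the difference for *Chrm3* was 0.952 points.

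Markers of layer and of other cell types were set beside these receptor differences. The 5 L5 markers *Fezf2*, *Bcl11b*, *Etv1*, *Pou3f1* and *Parm1* had log2 fold changes above 0, beside 52.7% of all genes, and 0 were called. At least 1 of them had a count in 29 of 47 Pyr←LP and 39 of 44 Pyr←ORBvl neurons, and their summed level ran from 0 to 1307 CPM in Pyr←LP neurons (median 9.43) and from 0 to 1773 CPM in Pyr←ORBvl neurons (median 499). Of the 11 markers of GABAergic neurons, at least 1 had a count in 30 of 47 and 43 of 44 neurons, with summed levels of 0 to 1394 CPM (median 20.1) and 0 to 3332 CPM (median 885). *Lamp5*, which was in 17 and 39 neurons, was the 1 called gene among the 4 of them tested on sums (log2 fold change 4.52, edgeR adjusted p = 0.00323). The defining genes *Gad1*, *Gad2* and *Slc32a1* had a count in 9, 6 and 1 Pyr←LP neurons and in 11, 6 and 2 Pyr←ORBvl neurons. *Dlx2* and *Lhx6* had counts in Pyr←LP neurons but no count in Pyr←ORBvl neurons. How far the summed level comes from *Lamp5*, or from GABAergic neurons at all, was not tested. In shares within prefixes, 5 of 5 tested GABAergic markers and 6 of 6 microglial markers were above 0, beside 62.9% of all genes, and 0 passed. In thinned counts, GABAergic markers were at 1 of 4, microglial at 4 of 5 and L5 at 4 of 5, beside 48.8% of all genes. With at least 5 counts asked of a neuron they were at 4 of 4, 3 of 5 and 5 of 5 in that order, beside 62.2% of all genes. Summed microglial markers ran from 0 to 15677 CPM in Pyr←LP (median 778) and from 0.923 to 9992 CPM in Pyr←ORBvl (median 975), and summed oligodendrocyte markers from 0 to 8644 CPM (median 941) and from 2.81 to 29051 CPM (median 1638). Neurons with *Htr1f* had a median of 658294 total counts and 3939 detected genes, and those without it 411884 and 3488. The part of depth and of L5, GABAergic and glial marker content in the receptor differences was not tested.

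Grouped by coupling, at least 1 Gq-coupled receptor had a count in 19 of 47 Pyr←LP neurons (40.4%, 27.6 to 54.7) and in 30 of 44 Pyr←ORBvl neurons (68.2%, 53.4 to 80.001). In thinned counts these shares were 44.7% (30.1 to 60.3) and 58.8% (42.2 to 73.6). Gs-coupled receptors were in 66.0% and 68.2% of the neurons of the types, Gi-coupled in 40.4% and 50%, and channels in 44.7% and 47.7%. These classes were chosen with results known and were not tested. *Adrb1* had a count in 57 of the 61 neurons with any Gs-coupled receptor, and *Chrm1*, *Chrm3*, *Htr2a* and *Adra1a* were the Gq-coupled genes with a higher pooled share in Pyr←ORBvl by over 10 points. With at least 5 counts asked of a neuron, *Chrm1*, *Chrm3* and *Adra1a* fell below this limit. *Htr2a* fell just below it without either one of the near-identical Pyr←ORBvl neurons 5 and 11.

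Levels of different genes were compared as deposited FPKM, which is scaled to the annotated length of each gene and so also depends on that annotation. The FPKM of the neurons of a type within a prefix were averaged first, each neuron with equal weight, unlike in the summed counts. Over these 31 prefix means, *Adrb1* was highest at 57.5 ± 60.6 FPKM (SD, n = 31), with a median of 41.1. *Htr1f* followed at 12.4 ± 23.4, *Htr2a* at 11.97 ± 27.4, *Chrm1* at 6.07 ± 9.95 and *Chrnb2* at 5.51 ± 7.76 FPKM. All neighbours in this order, *Adrb1* and *Htr1f* included, overlapped within 1 SD. The order below *Adrb1* was not stable: in Pyr←LP, *Chrnb2* was at 6.94 ± 9.66 FPKM and *Htr2a* at 4.43 ± 10.5, but in neurons with at least 100000 counts they were at 6.34 ± 9.10 and 7.09 ± 16.2, below *Htr5a* at 8.89 ± 18.5. The Pyr←ORBvl mean of *Htr2a* was 20.01 ± 36.9 FPKM, and 10.1 ± 21.9 without the neurons above the inhibitory marker limit, which include the near-identical pair. Within types, *Adrb1* was at 69.5 ± 71.6 FPKM in Pyr←LP (n = 16) and 44.7 ± 45.1 in Pyr←ORBvl (n = 15). *Htr1f* was at 3.78 ± 11.6 and 21.7 ± 29.1 FPKM in the same order. In neurons with at least 100000 counts, *Htr1f* was at 1.14 ± 1.95 FPKM in Pyr←LP (n = 15) and 19.9 ± 32.9 in Pyr←ORBvl (n = 13), and the neurons left out there include Pyr←LP neuron 36, with 82308 counts in all and the highest *Htr1f* level of its type (281 FPKM). Summed over all 37 receptors, the level was 131 ± 105 FPKM in Pyr←LP and 118 ± 78.9 in Pyr←ORBvl, within the spread, and the medians stood the other way, at 97.6 and 138.5 FPKM.

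Receptors were combined in single neurons to different extents. A neuron had a count of 2 receptor genes at the median in Pyr←LP (range 0 to 12) and of 3 in Pyr←ORBvl (range 0 to 7). No receptor was detected in 7 Pyr←LP and 4 Pyr←ORBvl neurons, and *Adrb1* was the only one in 7 neurons. An acetylcholine receptor gene had a count in 62 of the 91 neurons, and 55 of them also had a monoamine receptor. *Adrb1* was present in 14 of the 15 neurons with *Chrna4* (93.3%), in 15 of the 18 with *Chrm3* (83.3%), in 25 of the 32 with *Chrnb2* (78.1%), in 13 of the 20 with *Htr1f* (65.0%), in 20 of the 32 with *Chrm1* (62.5%) and in 6 of the 11 with *Htr2a* (54.5%), beside 62.6% of all neurons. By type, *Adrb1* was in 15 of the 16 Pyr←LP neurons with *Chrnb2* and in 10 of the 16 Pyr←ORBvl neurons with it. Neurons with *Adrb1* had a median of 3893 detected genes, against 2891 without it. Those with *Chrna4* and *Chrm3* had 4624 and 4469.5, against 3510 and 3532 without. The part of detected genes in the shares with *Adrb1* was not tested. *Chrm1* and *Chrm3* were found together in 6 neurons, and *Htr1f* and *Htr2a* in 3.

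The number of receptor genes in a neuron followed the number of all genes detected in it. Across the 91 neurons Pearson's r was 0.73 and Spearman's rho 0.68, both numbers being read from the same library. With total counts the correlation was 0.18 (rho 0.22). In neurons with under 3000 detected genes the median was 1 receptor in both types. In neurons with 3000 or more but fewer than 4500 it was 2 in Pyr←LP (21 neurons) and 3 in Pyr←ORBvl (19 neurons). In neurons with at least 4500, it was 5 (range 2 to 12, 7 Pyr←LP neurons) and 4.5 (range 3 to 7, 14 Pyr←ORBvl neurons), these limits having been set after the values were seen. Pyr←LP neuron 34, with 11013 detected genes, had the 12 receptors, among them the only *Htr1d* count, and it is 1 of the neurons above the inhibitory marker limit.

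**Figure D5:**
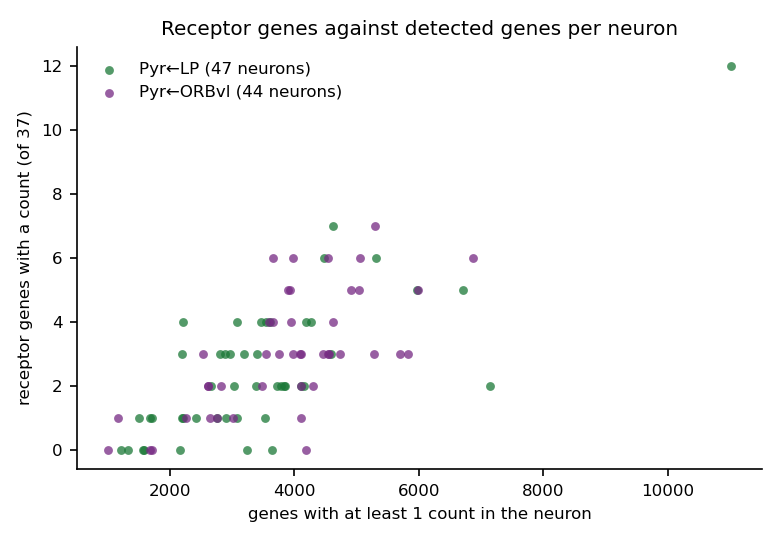
Number of the 37 receptor genes with a count against the number of all genes with a count, for 47 Pyr←LP and 44 Pyr←ORBvl neurons (1 point each). Receptor number goes up with detected genes in both types, and Pyr←LP neuron 34 lies apart at 12 receptors and 11013 genes.

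Downstream of the receptors, 75 genes of G proteins, effectors, regulators, nicotinic receptor partners and transmitter breakdown and uptake were listed, and 49 could be tested on sums. Of these, 1 was called, beside 0.278% of all genes, and 30 had a positive log2 fold change (median 0.31), beside 52.7% and a median of 0.06 over all genes. The called gene was *Gng7*, a G protein γ subunit. It had a count in 4 of 47 Pyr←LP neurons and 18 of 44 Pyr←ORBvl neurons. Its sums ran from 0 to 12.4 CPM in Pyr←LP and from 0 to 521 CPM in Pyr←ORBvl (median 38.5), and the log2 fold change was 6.27 (SE 1.499, edgeR adjusted p = 0.0331). The share with *Gng7* was higher in Pyr←ORBvl in 10 prefixes and in Pyr←LP in 0 (exact permutation p = 0.00195, adjusted p = 0.700). The call held in 14 of 33 alternatives and was lost in 19. It was lost under the study's rule on inhibitory markers (adjusted p = 0.0602, edgeR), in neurons with at least 100000 counts (0.0904), in sums over at least 2 neurons (0.0876), with the prefix as a block (0.427) and in the 3 limma fits (0.0588 to 0.106). It was also lost without any 1 of the prefixes 822, 823, 826, 8-27, 830, 831, 902, 907, 913, 914, 915 and 919 (adjusted p from 0.0558 to 0.160, edgeR). The log2 fold change lay between 2.38, with limma on log2(FPKM + 1), and 7.47, without prefix 810.

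No other signalling gene passed in this fit. On the sums, those with the next smallest unadjusted p were *Plcb4*, a Gq-activated phospholipase (log2 fold change 3.68, SE 1.52), and *Gna12*, a G protein α subunit (3.50, SE 1.48), on the positive side. On the negative side they were *Ric3*, a chaperone of nicotinic receptors (-2.11, SE 1.01), and *Ache*, the enzyme that breaks down acetylcholine (-2.19, SE 1.36). The edgeR adjusted p of these 4 lay between 0.869 and 0.999. *Gna12*, *Ric3* and *Ache* were each called in 1 alternative (edgeR with neurons as replicates, adjusted p = 0.0117, 0.0280 and 0.0488). That fit treats neurons of a prefix as independent and called 1.57% of all genes, beside 0.278% on sums, so these calls are not evidence over prefixes. In the shares of neurons, *Gnai1*, a Gi α subunit, differed by 41.1 points (35 of 44 against 20 of 47 neurons, exact permutation p = 0.00146, adjusted p = 0.700), and *Adcy6*, an adenylyl cyclase, by -11.0 points (3 of 44 against 8 of 47 neurons, exact p = 0.0938). Among 16 further receptor genes of acetylcholine, monoamines and histamine, 1 had enough counts for the test on sums and was not called.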

How the data were processed

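Raw gene counts of each neuron were deposited by the authors (reads aligned to GRCm38 with STAR 2.5.3 per the submitters' processing notes, PCR duplicates removed, uniquely aligned reads counted on RefSeq genes). They also deposited FPKM, which were 0 exactly where the count was 0 and equalled counts scaled by total counts and a fixed length per gene. Columns were matched to neurons by name, and type was taken from the labels. The members and gene lists were chosen with earlier results of these data known. All 37 members are accounted for, and values are given for those that passed the filter or led their family. Of the signalling list, genes past the test are named, and otherwise the 2 with the smallest p in each direction.

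Prefixes with and without a hyphen were merged where otherwise equal, giving 17 prefixes and 31 sums over 1 to 6 neurons. Genes reaching 5 counts in 10 or more neurons were tested with edgeR 4.0.16 (TMM, robust quasi-likelihood, Benjamini-Hochberg adjustment), and shares of neurons for genes with a count in 10 or more neurons by the permutation test. The alternatives were DESeq2 1.42.0, limma 3.58.1 on log2(value + 1) or log2(FPKM + 0.1), other filters, other neurons and each prefix left out. A further alternative thinned each neuron with at least 100000 counts to that total and left out the other neurons. Both tests were run on simulated data, where edgeR at the dispersion of these sums recovered only a minority of the changed genes, so the lack of a call does not show that the types were alike. It also called some unchanged genes there, so false calls can be more frequent than the adjusted p states. Python 3.11.15 and R 4.3.3 were used. Gene positions are from the GENCODE annotation of GRCm38. Protein sequences were not used here.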

Additional observations from a re-analysis of the deposited data

How the results depend on the processing

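Neurons of 1 prefix may or may not share a mouse, and counts in single neurons are sparse, so at this depth a receptor without a count is not shown to be absent. Of 8267 genes, 23 were called. This count was 1 with prefix as a replicate block, 130 and 68 with neurons as replicates in edgeR and DESeq2, 63 with DESeq2 on sums, 3985 of 18674 without a gene filter, 2 with edgeR's own filter, 15 in neurons with at least 100000 counts, 4 with limma on CPM, 6 with limma on FPKM at either pseudocount, and 10 to 25 with 1 prefix left out. The lowest counts were 10 without prefix 822 and 11 without prefix 831. Of the receptor genes, 0 were called in 33 of 34 alternatives. The exception was the fit without a gene filter, which called 10 of 26 (21.3% of all genes in that fit), each with counts in at most 7 neurons. In the shares of neurons, the permutations over few prefixes can pass the adjustment only where many genes reach the smallest p together, so the 0 calls in 20 alternatives say nothing about stability. Of these alternatives, the 2 that left out Pyr←ORBvl neuron 5 or 11 were chosen after seeing the data. The number of detected receptor genes and their summed level stayed within 1.5 times and within 1 SD under every alternative tried, those on levels having been chosen after seeing the data as well.

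Deviations of the types correlated only weakly within prefixes, at -0.0313 to 0.0917, and 0 of 14 exceeded 0.1. The median was 0.0381 within prefixes and -0.0015 between different prefixes. Sums over 1 to 6 sparse neurons are noisy, so these low values do not settle whether the prefix pairs the sums. With the replicate block, *Chrnb2* changed sign to 1.97, *Chrna4* was at 3.61 (unadjusted p = 0.0475, edgeR) and *Htr1f* at 2.86 (unadjusted p = 0.229). Signs also turned without prefix 811 for *Chrm1* (-0.22), without 8-27, 909 or 913 for *Chrna4* (-0.040, -0.17 and -0.28), without 810 for *Chrnb2* (0.27), and in thinned shares for *Chrm1* (-2.27 points). With 1 prefix left out the log2 fold changes ran from -0.22 to 0.75 for *Chrm1*, from -0.28 to 2.10 for *Chrna4* (the latter without 727) from -0.86 to 0.27 for *Chrnb2* and from -0.78 to -0.14 for *Adrb1*. The cause was not tested.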
